A study of Caenorhabditis elegans with 2 samples.

Results

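The X chromosome of Caenorhabditis elegans held 253 of the 1200 peaks in the optimal list of a chromatin immunoprecipitation with sequencing (ChIP-seq) experiment on LET-526. The members were all peaks of that list whose chromosome is X, and the other 947 lay on the 5 autosomes. The worms were of strain RW12306, which carries the insertion let-526::TY1::EGFP::3xFLAG made with CRISPR at the let-526 gene. They were synchronised as starved first-stage larvae after bleaching and collected whole as young adults at 60 hours, and an anti-GFP antibody was used on chromatin sonicated to 200 to 800 bp. All samples are 1 group, with 2 biological replicates, so no comparison of treatments exists, and p-values below describe counts of peaks or genes on X against the autosomes. All tissues of the animal are mixed in this material, the labels do not give its sex, and peak lists hold no expression by which stage or tissue could be checked. The data are lists of peaks without read counts, and sequencing depth is unknown.

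LET-526 is the counterpart in the worm of human ARID1 proteins, the large DNA-binding subunit of the BAF form of the SWI/SNF complex, which moves and evicts nucleosomes with energy from ATP. The X chromosome has a chromatin biology of its own: in hermaphrodites, which carry a pair of X chromosomes, a condensin-like dosage compensation complex binds along X and lowers its transcription. That complex is first recruited by SDC-2 at recruitment sites on X which share a short GC-rich motif, and it then spreads to promoters. X is also largely silent in the germline and carries few germline genes, and a large part of the worm's tRNA genes lies on it. RNA polymerase III transcribes tRNA genes from promoter elements inside the gene, the A box and the B box.

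Sequences at 8 peak summits are shown first, because several of the strongest peaks on X share short motifs. Each is 200 bases of the forward strand, 5′ to 3′, with the summit at its centre, from the RefSeq WBcel235 genome, the same assembly as ce11. In the first 5, capitals mark GCGNAGGG on either strand. This looser form of the core GCGCAGGG of the recruitment motif was chosen after values were seen.
F20B6.9, chrX:4209189-4209388: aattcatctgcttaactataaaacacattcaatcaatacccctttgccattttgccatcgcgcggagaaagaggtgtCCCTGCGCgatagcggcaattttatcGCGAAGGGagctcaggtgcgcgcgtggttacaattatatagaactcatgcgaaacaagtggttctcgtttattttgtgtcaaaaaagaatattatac
nspc-17, chrX:14525776-14525975: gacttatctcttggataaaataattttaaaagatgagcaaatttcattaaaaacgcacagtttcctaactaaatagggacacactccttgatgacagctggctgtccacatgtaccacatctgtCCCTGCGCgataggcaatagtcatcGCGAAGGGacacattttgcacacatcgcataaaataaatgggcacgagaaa
cest-16, chrX:6296487-6296686: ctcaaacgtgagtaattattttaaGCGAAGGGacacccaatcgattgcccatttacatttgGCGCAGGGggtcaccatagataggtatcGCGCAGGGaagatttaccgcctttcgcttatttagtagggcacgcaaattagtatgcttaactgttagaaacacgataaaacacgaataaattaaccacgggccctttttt
W02H3.3, chrX:11094133-11094332: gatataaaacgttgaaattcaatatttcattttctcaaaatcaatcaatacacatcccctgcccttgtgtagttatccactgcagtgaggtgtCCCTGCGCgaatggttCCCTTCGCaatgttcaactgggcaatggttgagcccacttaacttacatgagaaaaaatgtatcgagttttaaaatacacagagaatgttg
xol-1, chrX:8036312-8036511: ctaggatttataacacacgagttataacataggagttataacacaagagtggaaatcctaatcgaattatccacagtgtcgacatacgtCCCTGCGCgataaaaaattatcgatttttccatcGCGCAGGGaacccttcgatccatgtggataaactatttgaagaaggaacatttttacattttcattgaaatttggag
The next sequence, from the strongest peak on X, has capitals at GAANNTTC, an inverted pair of the GAA units of heat shock elements, which reads the same on either strand.
fbxa-190, chrX:1375122-1375321: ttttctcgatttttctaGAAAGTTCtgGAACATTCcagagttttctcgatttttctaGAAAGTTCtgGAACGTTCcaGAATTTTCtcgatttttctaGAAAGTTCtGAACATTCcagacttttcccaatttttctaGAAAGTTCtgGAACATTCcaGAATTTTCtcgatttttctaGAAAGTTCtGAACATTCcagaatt
The strongest peak near tRNA genes has capitals at GGTTCGA, the core of the B box, here on the reverse strand.
M02F4.2, chrX:3035971-3036170: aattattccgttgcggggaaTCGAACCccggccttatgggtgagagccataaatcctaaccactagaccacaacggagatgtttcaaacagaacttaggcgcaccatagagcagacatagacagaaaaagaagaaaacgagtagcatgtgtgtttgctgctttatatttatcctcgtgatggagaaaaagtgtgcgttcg
The last, from the promoter peak of ceh-39, holds none of the letters GCGNAGGG and has no capitals.
ceh-39, chrX:1856346-1856545: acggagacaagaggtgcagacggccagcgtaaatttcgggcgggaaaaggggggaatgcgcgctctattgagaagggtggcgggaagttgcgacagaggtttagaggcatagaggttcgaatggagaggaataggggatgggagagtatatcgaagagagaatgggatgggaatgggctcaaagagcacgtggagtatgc
The names are those of the nearest annotated protein-coding start. A match is a description of the letters and not evidence of a bound factor.

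X had the highest peak density of the 6 chromosomes. It held 21.1% of the optimal peaks (exact 95% interval 18.8 to 23.5%), or 14.3 peaks per Mb, against 17.7% of the assembled length. The ratio was 1.19 (two-sided exact binomial p = 0.00244). The autosomes ranged from 9.49 to 13.7 peaks per Mb. Intervals cover counting error over peaks only, and 13 X peaks shared sequence with a stronger peak of the list. With replicate 1 alone 113 of 585 peaks lay on X (19.3%, exact binomial p = 0.303), and with replicate 2 alone 85 of 421 (20.2%, exact binomial p = 0.180), so neither replicate passed the test by itself. In the unthresholded ranked lists, X had 17.2 to 18.4% of all entries. The difference was not seen without peaks near tRNA genes: then 17.7% of the remaining peaks were on X, a ratio of 0.999 (exact binomial p = 1). Set against X's 13.7% of protein-coding genes, the ratio of all peaks was 1.54 (exact binomial p = 2.27e-12).

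**Figure D1:**
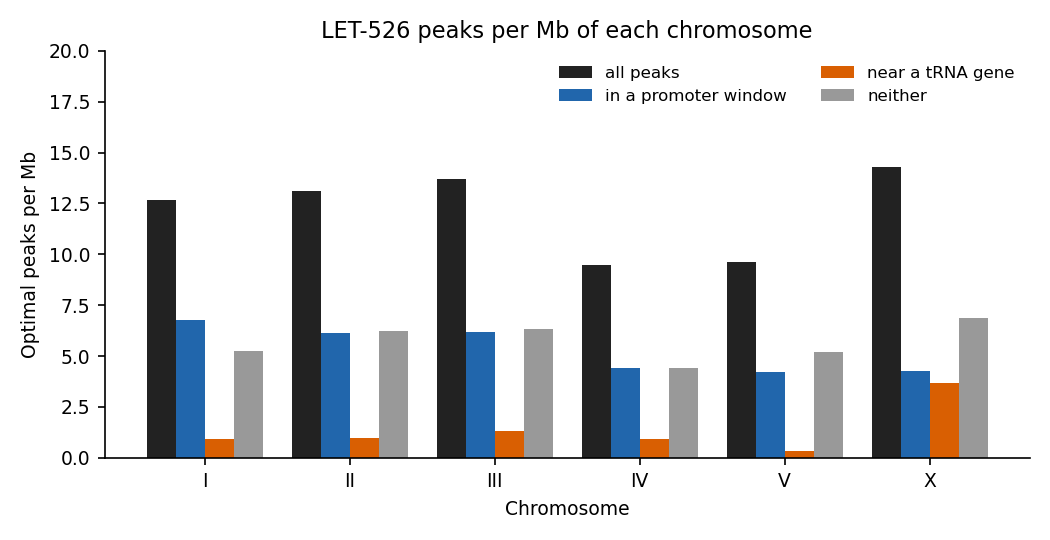
Bars give the number of optimal peaks per Mb of each chromosome, for all peaks, those in a promoter window, those within 200 bp of a tRNA gene, and those in neither (a peak in a window and near a tRNA gene counts in both bars). X has the tallest bar for all peaks (14.3) and for tRNA genes (3.67 per Mb, against 0.335 to 1.31 on the autosomes). It also has the tallest bar for neither (6.89, against 4.40 to 6.31), but its promoter bar (4.29) is lower than those of 4 autosomes.

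Along X the peaks were spread over the whole chromosome. In 10 equal parts of its length, counts ran from 20 in the first and the sixth part to 35 in the eighth, which also had 14 of the 65 peaks near tRNA genes. The eighth part also held 53 of the 276 tRNA genes on X, and the fifth part, with 54 tRNA genes, had 7 peaks near them. The ninth part held the most promoter peaks, 14 of 76, and the tenth held the fewest, 1 of 76, among 199 protein-coding starts, the lowest number of any part. Median signal per part lay between 80.8 and 106.0. Summits on X had a median spacing of 41.7 kb (42.9 kb on the autosomes), the widest gap on X was 475.1 kb, and 93 summits (36.8%) had another within 5 kb, against 37.1% on the autosomes. In 3 places, 4 or more summits followed each other at no more than 5 kb. These held 20 of the 253 peaks (7.91%, against 5.17% of autosomal peaks in 11 such runs). The longest had 9 peaks over 12.6 kb around mdl-1, a MAD-like transcription factor gene, at chrX:6737630-6750488, with signals from 5.24 to 159.7 and none called in both replicates. The start of mdl-1 was the nearest for 8 of the 9, and 2 of these lay in its promoter window. The strongest of the run was 4464 bp upstream of R03E9.2. A run of 7 intergenic peaks in 4.23 kb lay at chrX:16928160-16932662, where 6 of the 7 were within 200 bp of the noncoding RNA gene C30E1.9 and the other was at a tRNA gene, and C30E1.4 had the nearest protein-coding start. The third run, of 4 peaks near ZK470.4, had 1 peak called in both replicates. These runs were picked out after their values were seen.

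**Figure D2:**
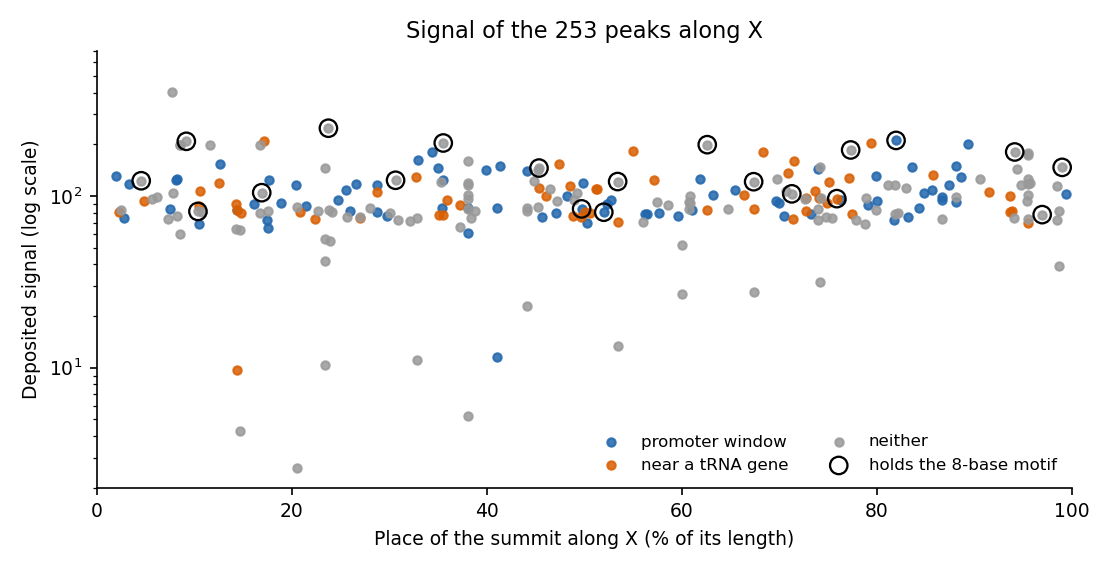
Each point is 1 of the 253 X peaks, with the place of its summit as a percentage of the length of X and its deposited signal on a log scale. Colours give promoter windows first and then tRNA genes, and circles mark the 20 peaks whose summit window holds the 8-base motif. The circled peaks run from 4.55% to 99.0% of the length and include 7 of the 20 strongest.

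A smaller share of X peaks than of autosomal peaks lay at promoters. A promoter window ran from 1000 bp upstream to 200 bp downstream of the annotated start of a protein-coding gene. Of the X summits 76 of 253 lay in such a window (30.04%, interval 24.5 to 36.1%), against 446 of 947 autosomal summits (47.1%, interval 43.9 to 50.3%). The difference was -17.1 percentage points (interval -23.3 to -10.4, two-sided Fisher's exact p adjusted over 19 properties = 5.14e-06). X was below each of the 5 autosomes, which ranged from 43.8 to 53.4%. The shares were 32.7% on X and 49.8% on the autosomes in replicate 1 alone, and 25.9% and 52.7% in replicate 2 alone. X also has less promoter sequence, since windows cover 17.6% of it against 22.3% of the autosomes. Relative to that cover, summits were 1.71 times as frequent in windows on X and 2.11 times on the autosomes.

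Counted per gene over the whole optimal list, the lower share on X did not pass the test. Of the 2731 protein-coding genes on X, 77 had a promoter peak (2.82%, interval 2.23 to 3.51%), against 587 of 17242 on the autosomes (3.40%, interval 3.14 to 3.69%) and 3.32% of genes over all chromosomes. The difference was -0.585 percentage points (interval -1.21 to 0.153, Fisher's exact p = 0.121), and the autosomes ranged from 2.24 to 4.66%, with 1 of them below X. The call changed with the peaks taken. The lower share on X passed the test with replicate 2 alone (0.842% against 1.43%, Fisher's exact p = 0.0121), with only peaks above the median signal (1.54% against 2.18%, Fisher's exact p = 0.0306) and without peaks near tRNA genes (2.38% against 3.30%, Fisher's exact p = 0.00969). The test counts a peak once for each gene in whose window it lies. With only the nearest start counted for each promoter peak, the direction turned, with shares of 2.67% on X and 2.48% on the autosomes (Fisher's exact p = 0.553). X promoter peaks rarely sat between neighbouring starts: 5 of 76 lay in more than 1 window (6.58%, interval 2.17 to 14.7%), against 153 of 446 autosomal ones (34.3%, interval 29.9 to 38.9%). That difference passed the test (adjusted Fisher's exact p = 8.32e-07) and had the same direction against each autosome. Genes lie further apart on X, at 154.1 per Mb against 208.9, and 5.05% of promoter sequence on X belongs to windows of 2 or more genes, against 12.005% on the autosomes.

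Peaks outside promoters fell between genes more often on X. Of 177 X summits outside windows, 109 were intergenic (61.6%, interval 53.99 to 68.8%), against 206 of 501 on the autosomes (41.1%, interval 36.8 to 45.6%, adjusted Fisher's exact p = 1.18e-05). Each autosome was below X, with 32.7 to 48.3%. Intergenic sequence outside windows makes up 32.3% of X and 23.5% of the autosomes. Of all X peaks 43.1% were there, 1.33 times the cover, while of all autosomal peaks 21.8% were, 0.926 times the cover. Introns held 62 of the 177 (35.0%, against 42.5% on the autosomes, adjusted Fisher's exact p = 0.157). Coding exons held 5 (2.82%, against 10.8%, adjusted Fisher's exact p = 0.00160), 5′ UTRs 1 and 3′ UTRs 0. The coding exon difference passed in replicate 1 alone (adjusted Fisher's exact p = 0.00386) and not in replicate 2 alone (adjusted Fisher's exact p = 0.262). It also did not pass among peaks above the median signal (3.45% against 5.77%, adjusted Fisher's exact p = 0.671). X summits were also further from protein-coding starts, with 110 of 253 (43.5%) over 2000 bp from the nearest one, against 28.2% on the autosomes (adjusted Fisher's exact p = 1.95e-05). Of the 110, 70 were intergenic, 37 in introns and 3 in coding exons, and 32 were near a tRNA gene. The intergenic difference held in replicate 1 alone (72.4% against 44.3%) and in replicate 2 alone (73.0% against 47.2%).

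**Figure D3:**
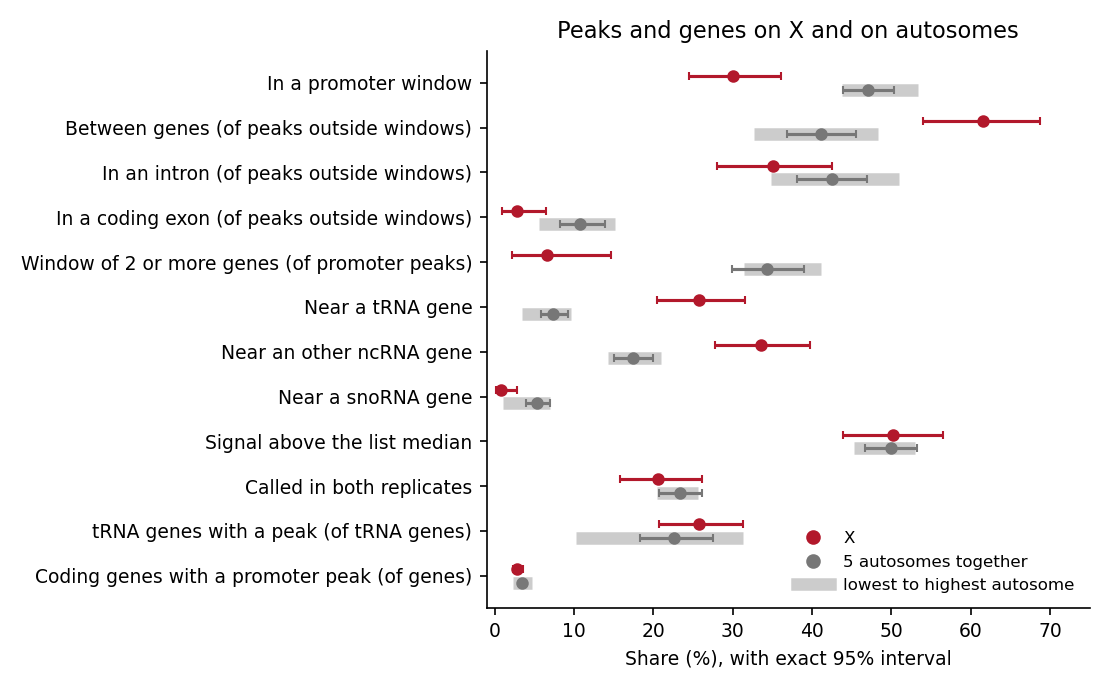
Points give shares of peaks, or of genes in the last 2 lines, on X and on the 5 autosomes together, with exact 95% intervals. Pale bars span the lowest to the highest autosome. X stands outside the range of the autosomes for promoter windows, intergenic summits and tRNA genes among peaks, and inside it for tRNA genes and coding genes counted as genes.

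Of the X peaks, 65 lay within 200 bp of a tRNA gene (25.7%, interval 20.4 to 31.5%), against 70 autosomal peaks (7.39%, interval 5.81 to 9.25%). The difference was 18.3 percentage points (interval 13.0 to 24.2, adjusted Fisher's exact p = 1.10e-12), and the autosomes ranged from 3.48 to 9.64%. It was 24.8% against 6.14% in replicate 1 alone and 32.9% against 7.74% in replicate 2 alone. X carries 276 of the 612 annotated tRNA genes (45.1%), and per tRNA gene the difference did not pass the test. On X 71 of the 276 had a peak (25.7%, interval 20.7 to 31.3%), against 76 of 336 on the autosomes (22.6%, interval 18.3 to 27.5%) and 24.0% over all chromosomes. The difference of 3.11 percentage points had an interval of -3.66 to 9.97 (Fisher's exact p = 0.393). Autosomal shares ran from 10.3 to 31.3%, with 3 autosomes below X and 2 above it. Genes near each other can share a peak, as 7 of the 65 peaks had 2 or more tRNA genes within reach.

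The strongest peak near tRNA genes lay between M02F4.t2, a glutamate tRNA gene, and M02F4.t1, a glycine tRNA gene, at chrX:3035936-3036205, with a signal of 209.5. It gave 118.8 in replicate 1 and 90.3 in replicate 2. Next came the lysine gene C33G3.t2 (203.7), whose summit was 7 bp from its first base, and the alanine genes F15G9.t1 and F15G9.t2, which shared a peak in an intron (183.7). The lysine gene W03G11.t1 (180.6) and the tyrosine gene C02B4.t2 (159.3) followed. With the strongest peak taken for each of the 71 genes, 43 had the summit inside the gene, 28 upstream of it and 0 downstream, with a median place 7 bp into the gene. The aspartate gene F52H2.t1 had a second, weaker peak whose summit lay 162 bp past its end. Amino acids were read from RefSeq products for 607 of the 612 genes. Genes for 19 of the 20 amino acid classes present on X had a peak, from 8 of 20 glycine genes and 4 of 8 tyrosine genes to 3 of 27 arginine genes. Cysteine had 0 of 7, a number that allows a share of up to 42.9%. By location, 34 of the 65 peaks were intergenic, 21 in introns and 10 in promoter windows. Their signals ran from 9.73 to 209.5 with a median of 93.7, against 92.7 for all X peaks.

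Other noncoding genes divided by class. Within 200 bp of a gene annotated as ncRNA, lincRNA or antisense RNA lay 85 X summits (33.6%, interval 27.8 to 39.8%), against 165 autosomal ones (17.4%, interval 15.1 to 19.99%, adjusted Fisher's exact p = 7.26e-07). Of the 85, 41 were also near a tRNA gene, and among peaks away from tRNA genes the shares were 23.4% and 13.6% (adjusted Fisher's exact p = 0.00433). X has 2565 such genes, more than any autosome, and sequence within reach of them covers 6.63% of X and 3.35% of the autosomes, so that peaks were 5.07 and 5.21 times the cover. Away from tRNA genes, the strongest examples were 2 peaks at tts-1, a long noncoding RNA known to associate with ribosomes. Their signals were 197.7 (135.1 and 66.8 in replicates 1 and 2) and 197.5 (114.1 and 114.4). Genes for snoRNAs, which guide chemical modification of ribosomal RNA, were near 2 X peaks (0.791%) against 50 autosomal ones (5.28%, adjusted Fisher's exact p = 0.00173). The difference passed in replicate 2 alone (adjusted Fisher's exact p = 0.00129) and not in replicate 1 alone (adjusted Fisher's exact p = 0.0655). X has 33 snoRNA genes and each autosome 54 to 74. Sequence within reach of them covers 0.101% of X and 0.199% of the autosomes, so that peaks were 7.80 and 26.5 times the cover. The snoRNA genes were D2021.6, beside sdha-1, a succinate dehydrogenase subunit gene (signal 99.8), and C53B7.8 (81.8). No X peak was near a snRNA gene, of which X has 3. The microRNA gene mir-54 had the only microRNA peak on X (148.1), called in replicate 2 alone.

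Short letter strings from the core of the recruitment motif were found at several of the strongest X peaks. The full motif was not scored, and known recruitment sites were not looked up. Motifs were searched on both strands of the 200-bp summit windows, with no test, and set beside all consecutive 200-bp windows of the same chromosomes. GCGCAGGG, the core of the recruitment motif, was in 13 X windows (5.14%, interval 2.76 to 8.63%) and 4 autosomal ones (0.422%, interval 0.115 to 1.08%). Over all windows its share was 0.0869% on X and 0.0538% on the autosomes. In replicate 1 alone it was in 6.19% of X peaks and 0.424% of autosomal peaks, and in replicate 2 alone in 9.41% and 0.298%. GCGNAGGG, which contains every match of GCGCAGGG, was in 20 X windows (7.91%) and 13 autosomal ones (1.37%), against 0.424% and 0.351% of all windows. A longer form, TCGCGNAGG, which overlaps GCGNAGGG where the letters allow, was in 14 and 2 (5.53% and 0.211%), against 0.165% and 0.0945% of all windows. In replicate 1 alone GCGNAGGG was in 9.73% of X peaks and 1.69% of autosomal peaks, and in replicate 2 alone in 16.5% and 0.893%. TCGCGNAGG was in 10.6% and 0.212% in replicate 1 alone, and in 15.3% and 0 of 336 in replicate 2 alone. The last 2 forms were chosen after values were seen.

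For the 20 X peaks with GCGNAGGG, a form chosen after values were seen, the median signal was 123.0, and for the other X peaks 90.4. With GCGCAGGG the medians were 123.4 for the 13 X peaks that hold it and 91.7 for the others, and both replicates called 7 of the 13. By rank, 7 of the 20 peaks with GCGNAGGG were among the 20 strongest X peaks, 6 among ranks 21 to 63, and 1 among the lowest 64. Of the 20, 13 were intergenic, 3 in introns, 3 in promoter windows, 1 in a coding exon, and 13 were over 2000 bp from the nearest start. Both replicates called 10 of them. The motif lay within 50 bp of the summit in 16, and at most 85 bp from it. There were 12 windows with 1 copy, 7 with 2 and 1 with 3. Of the 7 with 2 copies, 4 had them on opposite strands, as in the F20B6.9, nspc-17 and xol-1 sequences shown above, and the copies were 8 to 68 bp apart. Windows with 2 or more copies had a median signal of 172.1, and 6 of the 8 were called in both replicates, against 111.9 for windows with 1 copy. Each of the 10 parts of X held at least 1 of the 20.

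Among these peaks, the one upstream of F20B6.9 (chrX:4209203-4209302) was the second strongest on X, with a signal of 247.9, 142.6 in replicate 1 and 99.3 in replicate 2. It lay 1804 bp from the start. The peak in the window of nspc-17, a member of a nematode-specific peptide family, was the strongest promoter peak (chrX:14525858-14525925, signal 210.5). It was higher in replicate 2 (116.3) than in replicate 1 (96.2). The strongest intronic peak (chrX:6296519-6296591, signal 203.4) lay inside mom-1 and had 3 copies on the same strand. Its summit was 3355 bp upstream of the nearest start, that of cest-16, a carboxylesterase family gene. Peaks near fbxb-58 (208.0), W02H3.3 (198.8), K02D3.1 (185.2) and F22H10.2 (180.3) were the others among the 20 strongest. The fbxb-58 and K02D3.1 windows held GCGNAGGG but not GCGCAGGG. For xol-1, the gene whose activity sets male development and keeps dosage compensation off, the closest such peak lay 4901 bp upstream (145.3, called in both replicates). Another, at signal 111.8, lay 4540 bp upstream without the motif. Its summit fell 16 bp before the first base of C18A11.t2, an arginine tRNA gene.

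In the optimal list the other motifs had closer shares on X and the autosomes, apart from the B box core. GGTTCGA was in 17.8% of X windows and 7.81% of autosomal ones, against 1.32% and 1.47% of all windows, and 40 of the 45 X peaks with it were near tRNA genes. GAGAGA was in 40.3% and 32.5%, against 9.52% and 10.04% of all windows. The E-box CACGTG was in 9.88% and 10.5%, against 2.64% and 3.46%. TGATAA, the core bound by GATA factors, was in 13.8% and 13.5%, below its share of all windows (19.02% and 17.6%). TATAAA was in 13.0% and 10.5%, against 22.7% and 20.8%. These last 3 shares on X moved by over 1.5 times in replicate 2 alone, where CACGTG was in 4 of 85 X peaks (4.71%, against 11.9% on the autosomes), TGATAA in 7 (8.24%, against 10.1%) and TATAAA in 17 (against 11.6%). At least 3 copies of GAANNTTC, added after values were seen, were in 2 X windows and 13 autosomal ones, against 0.205% and 0.435% of all windows. The X peaks were those near fbxa-190 and Y102A11A.1, with 12 and 15 copies. Median GC content of the windows was 47.0% on X and 45.5% on the autosomes, and 35.2% over the whole of X.

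The strongest X peak lay 3210 bp downstream of the start of fbxa-190, an F-box gene, at chrX:1375151-1375266. Its signal was 402.7, with 244.4 in replicate 1 and 176.9 in replicate 2, and its whole window is repeat sequence in the soft-masked genome. The peak near Y102A11A.1 (196.8) was also wholly repeat. Windows of which over 50% is masked numbered 11 of 253 on X (4.35%) against 11.4% on the autosomes. Of the 20 strongest X peaks 15 were intergenic, 3 in promoter windows and 2 in introns, and 4 were near tRNA genes. The promoter peaks were those of nspc-17, serp-1.1 (201.7) and hsp-3. The last gene encodes an Hsp70 chaperone of the endoplasmic reticulum, and its peak had a signal of 180.9 (108.4 and 69.7 in replicates 1 and 2), 40 bp upstream of the start. Other peaks of the 20 were nearest to lgc-21, a ligand-gated ion channel gene, aakg-3, a gamma subunit gene of AMP-activated kinase (196.7), col-181, a cuticle collagen gene, and C30E1.4 (176.9 and 172.6). All but the aakg-3 peak were called in both replicates, and 9 of the 20 were narrower than 200 bp, against 13 of all 253.

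In introns, the peaks nearest to the starts of cest-16 and F15G9.5 were followed by those nearest to nlp-76, a neuropeptide-like gene (159.3), and sulp-3, a sulfate transporter gene (153.9), each at a tRNA gene. The cest-16, F15G9.5 and nlp-76 summits lay 3355, 5772 and 1325 bp upstream of these starts. They were thus outside the genes named and in introns of other genes. The coding exon peaks were weaker: the strongest were nearest to C41A3.2 (123.4), endu-2, an endoribonuclease gene (109.3), F09A5.3 (96.8) and F17H10.1 (72.8). These names too are those of the nearest start. The C41A3.2 summit lay 15210 bp upstream of it, so in an exon of another gene, and the F09A5.3 summit 13098 bp downstream. The 5′ UTR peak, nearest to W01C8.5, had a signal of 71.7. None of the last 5 was called in both replicates.

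Of the dosage compensation list 0 of 2 genes on X and 0 of 8 on the autosomes had a promoter peak, and of the list of X signal elements and sex determination genes 1 of 4 on X and 0 of 10 on the autosomes. Beside them stand 2.82% of all protein-coding genes on X and 3.40% on the autosomes, and lists of this size are too small to be read against those shares. Of the dosage compensation complex, sdc-1 and sdc-2, both needed to direct it to X, lie on X, and neither had a promoter peak; their nearest summits were 65.9 kb and 50.6 kb away. Of the X signal elements and xol-1, only ceh-39 had a promoter peak. It encodes a ONECUT homeobox protein that represses xol-1 according to X number. The peak (chrX:1856311-1856580) lay 274 bp upstream with a signal of 68.9, rank 229 of 253, at 34.5 in replicate 1 and 35.7 in replicate 2, and neither replicate called it. For fox-1, an RNA-binding X signal element, and sex-1, a nuclear receptor X signal element, the nearest summits were 68.2 kb and 14.03 kb from the start.

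Counts of promoter peaks in other gene lists stand beside the same 2.82% on X and 3.40% on the autosomes and were not tested. Nuclear hormone receptors had 2 of 27 on X, nhr-48 (129.4) and nhr-35 (108.0), and 3 of 247 on the autosomes. Heat shock and chaperone genes had 2 of 5, hsp-3 and dnj-14, whose peak of 117.6 it shares with the window of glit-1, and 11 of 55 on the autosomes. Cytosolic ribosomal protein genes had 1 of 2, rpl-11.2 (152.8), and 20 of 76 on the autosomes. Vitellogenins, the yolk proteins, had 1 of 5, vit-2 (115.4), with the summit 119 bp inside the gene, and the 1 autosomal member also had a peak. Histones had 1 of 5, the linker histone gene his-24 (72.0), and 6 of 76 on the autosomes. Neuronal genes had 1 of 13, the synaptic scaffold gene syd-2 (76.3), and 1 of 40 on the autosomes. Homeobox genes had 1 of 23, ceh-39, and 2 of 62. No peak was found for 34 neuropeptide genes, which allows a share of up to 8.82%, or for 37 guanylyl cyclase and chemoreceptor genes (8.11%), 28 collagens (10.7%), 10 body wall muscle genes (30%) and 7 nicotinic receptor subunits (42.9%). On the autosomes these lists had 0 of 106, 6 of 1358, 2 of 137, 2 of 23 and 0 of 22, in the same order. The SWI/SNF and germline lists had no member on X, and 2 of 13 and 3 of 48 on the autosomes.

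Signal did not differ between X and the autosomes beyond counting error. The median was 92.7 on X (quartiles 78.7 and 118.3) and 92.3 on the autosomes (79.2 and 116.5). Above the median of all peaks lay 127 X peaks (50.2%) and 49.9% of autosomal ones, a difference of 0.250 percentage points with an interval of -6.64 to 7.14 (adjusted Fisher's exact p = 1). X had 1 of the 20 strongest peaks of the whole list and 18 of the 100 strongest. Signals below 50 were found for 14 X peaks (down to 2.62), of which 13 overlapped a stronger optimal peak.

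The share of peaks called in both replicates did not differ beyond counting error. Both replicates called 52 of the 253 peaks (20.6%, interval 15.7 to 26.1%), against 221 autosomal ones (23.3%), a difference of -2.78 percentage points with an interval of -8.10 to 3.20 (adjusted Fisher's exact p = 0.541). Replicate 1 called 108 (42.7%), replicate 2 called 86 (34.0%) and neither called 111 (43.9%, against 43.2% on the autosomes). By strength, 19 of the 20 strongest X peaks were called in both, and 2 of the 64 weakest. Of replicate 1's own 113 peaks on X, 46.02% overlapped a peak of replicate 2, and of replicate 2's 85, 60.0% overlapped one of replicate 1 (47.7% and 65.5% on the autosomes). The stricter conservative list contained 195 of the 253 unchanged (77.1%, against 75.2%). In the ranked lists 247 X peaks had a signal in both replicates, with medians of 52.9 and 43.1, and replicate 2 was higher in 70 (28.3%). Across these 247 peaks, which come from the same pair of libraries, Spearman's rho was 0.405 and Pearson's r on the log10 scale 0.451 (0.351 and 0.554 over 923 autosomal peaks). Peaks near tRNA genes had a median ratio of replicate 2 to replicate 1 of 0.856, and promoter peaks 0.736.

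**Figure D4:**
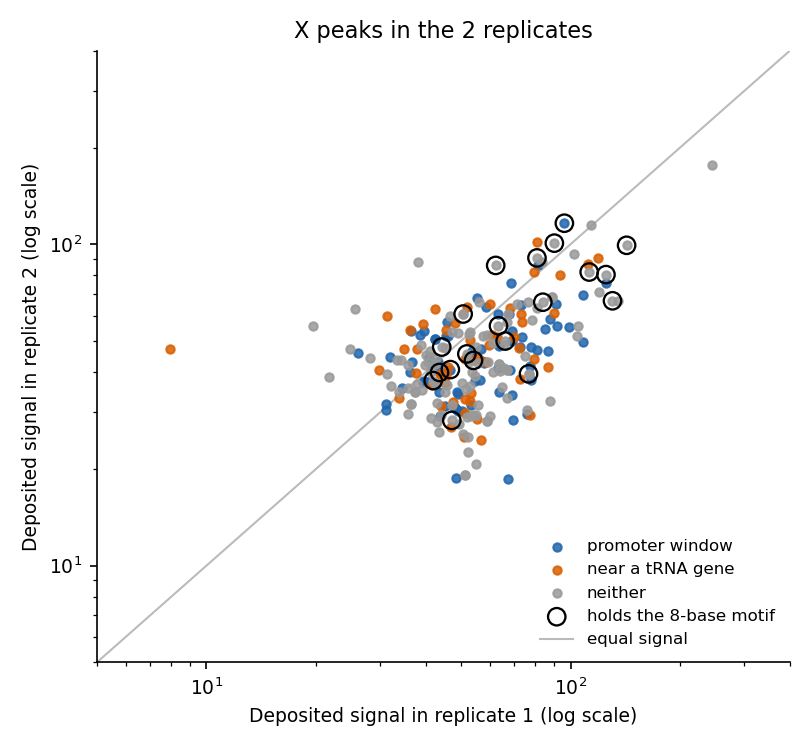
Each point is 1 of 247 X peaks, with its deposited signal in the ranked list of replicate 1 against that of replicate 2, both on log scales, and a line of equal signal. Colours and circles are as in the plot along X. Most points lie below the line, and the peak near fbxa-190 lies at 244.4 and 176.9, beyond all others.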

How the data were processed

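Per the labels, ChIP-seq against GFP was made on 2 biological replicates of 1 group, and the peak lists are on ce11. Neither the peak caller nor the aligner is given in the sources used here, and a control experiment that the labels name as possible was not analysed here. Each deposited peak has a signal, the authors' peak caller's own value, which was compared only within a list or as ratios between replicates, and a score of at most 1000, whose lowest value in the optimal list was 830. Of the columns used, 0 could not be tied to a sample or to the pooled lists.

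The 1-based summits were placed on 19973 protein-coding genes of Ensembl release 115 with Python 3.11.15, pandas 2.3.3 and numpy 2.4.6. Overlap was 1 bp or more. Counts were compared with two-sided Fisher's exact tests in scipy 1.17.1, adjusted by Benjamini-Hochberg over 19 properties of peaks, with a threshold of 0.05. The 2 tests per gene and the binomial test were not adjusted. Single shares have exact Clopper-Pearson 95% intervals and differences Newcombe intervals (statsmodels 0.14.6). A count of 0 allows 3 divided by the total. These cover counting error only, since depth is unknown and peaks are not replicates of a condition. An exact permutation of 1 X against 5 autosomes cannot go below 0.167 one-sided, so the range over autosomes is given without a test. The tests of promoter share, tRNA share and the share of peaks on X were first tried on simulated peaks with planted differences. The signal test was tried only without a planted difference, and results of the other tests were not checked in this way.

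Members, lists, motifs and tests were chosen with earlier results of these data known. Genes named are those at the 20 strongest X peaks, the 4 strongest of each location class outside promoter windows, the 5 strongest peaks near tRNA genes, the other small RNA genes near X peaks, the dosage compensation and X signal lists, and up to 4 members of each of 16 lists. Genes of further peaks with GCGNAGGG and of runs, and the gene that holds the strongest intronic peak, were named after their values were seen. Alternatives were the conservative list, each replicate by itself, only peaks above the median signal, the list without overlapping peaks or those near tRNA genes, other windows and distances, and other overlap rules.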

Additional observations from a re-analysis of the deposited data

Results flagged for a closer look

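The ranked list behind the optimal list held 20 further X entries with a score of 830 or more that the optimal list leaves out, of 125 over all 6 chromosomes. They are data outside the comparisons above, and 5 of them had a signal over that of the strongest optimal X peak. The highest, at chrX:15810950-15811192 between genes, had a signal of 3307.6, and the next, at chrX:293328-293511, had 1364.3. Of the 20, 19 were intergenic, 0 lay in promoter windows or near tRNA genes, and 0 held GCGNAGGG. Of the window at the highest, 98.0% is soft-masked repeat. The documentation deposited with the series names a further file behind the thresholded lists and not the ranked ones, whose content is not given in the sources used here, and its part was not tested.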

How the results depend on the processing

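No paired analysis was possible because there was 1 group. Of 67 alternatives tried over the results, 58 were counted as unchanged. For results with a test, this meant the same direction and the same side of the threshold. The 58 include 3 for motifs and 2 for replicate signals, which had no test and so no threshold. The excess of peaks on X over its length, a ratio of 1.19, ran from 1.09 to 1.14 with either replicate left out, where it missed the threshold, and was 0.999 without peaks near tRNA genes (exact binomial p = 1). The share of genes with a promoter peak, -0.585 percentage points, passed the threshold without replicate 1 (from -0.585 to -0.505 over both left out), above the median signal (-0.643) and without peaks near tRNA genes (-0.920), and turned to 0.191 with the nearest start only. Signal above the median turned from 0.250 to -0.589 percentage points without peaks near tRNA genes, and neither passed. GCGCAGGG, in 5.14% of X windows, was in 6.19% and 9.41% with a replicate left out. The cause was not tested. The promoter, intergenic, tRNA and other ncRNA differences passed under every alternative run for them. Alternatives without peaks holding GCGNAGGG, and those for intergenic, other ncRNA, motif and replicate signal values, were added after the data were seen. Depth is unknown, so a promoter or tRNA gene with no peak may be bound below what these libraries detect.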
